A study of Mus musculus with 14 samples.

Results

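A set of 10 glycosyltransferase genes expressed in gut epithelium was read across 5 groups of mouse intestinal samples. The genes were C1galt1, Gcnt3, B3gnt7, B3galt5, Fut2, B4galnt2, St3gal3, St3gal4, St6gal1 and St6galnac6. They were picked by name, and the set was put together because B3galt5 and St6galnac6 were high on these colon arrays, so the colon levels of its members are given as a description, without a test against small intestine. Of 36161 gene names on the array these are 10, read by 11 of 55681 probes, since St6gal1 has 2 probes and every other member has 1.

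Glycosyltransferases are enzymes of the Golgi that move a sugar from an activated donor to a growing glycan. In the gut they build the O-glycans of mucins and the glycans of the epithelial surface in order: a core is laid down on the protein, branched and extended, and then closed by fucose, sialic acid or N-acetylgalactosamine. The chain ends form blood group and Lewis-type structures, which differ along the intestine and are known to be remodelled in intestinal tumours.

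RNA of 14 samples had been hybridized to 1 one-color Agilent array each. Healthy small intestine (3 arrays) and colon (3 arrays) were whole tissue labelled C57BL/6J. Adenomas (3 arrays, macroscopic lesions) and the tissue adjacent to them (2 arrays) were whole tissue of APCmin/+ mice, in which a truncating allele of the tumour suppressor Apc gives rise to intestinal adenomas. CT26 (3 arrays) is a mouse colon carcinoma line, here from ATCC, and the study lists its strain as BALB/c. By the sample list of the study, the small intestine arrays came from different mice, every adenoma and adjacent piece came from a single Apc Min/+ mouse, and 1 colon sample is placed under such a mouse although its label gives C57BL/6J. The spread between adenoma arrays is therefore that between pieces of one animal, and nothing states that the CT26 arrays came from separate cultures, so p-values measure only the spread between these samples. Between the Apc Min/+ pieces and healthy tissue, animal and genotype cannot be told apart, nor can the lesion for the adenomas. In whole tissue, fewer cells of a type and less RNA per cell cannot be told apart. The line is a pure culture of another strain set against whole tissue, so culture and strain cannot be told apart either.

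Values are the log2 of the background-subtracted signal minus the 75th percentile of the array, called the log2 signal here, so 0 is the 75th percentile itself and a step of 1 is a doubling. From 46.85% to 58.21% of the probes passed the scanner's test for signal well above background on each array, and the number of arrays limits the precision. Levels are compared between groups for one probe and never between genes. Lack of overlap between groups is a description, since the share of all genes without it is not given. A gene was called in a comparison when the limma log2 fold change reached 1.2 in size and the Benjamini-Hochberg adjusted p over all probes tested was at most 0.01, the thresholds of the study. Probes were tested if well above background on every array of 1 or both groups. A gene that passed in 1 group alone entered through that group, which favours a higher value there. Where the fold is a bound, the direction was set by this filter. Where a gene was not well above background on any array of the dimmer group, the fold is a bound ("at least"), in which the dim group is set, array by array, to the lowest signal that passed for well above background there, or to the gene's own signal if that is higher. Every such bound holds for the scanner's background subtraction only, and other corrections can give a smaller fold.

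The labelled tissues were checked with marker lists, and 1 library stood apart. Over 10 genes of small intestine enterocytes the median log2 signal was 6.03 to 9.05 on the small intestine arrays, -1.19 and -0.82 on colon replicates 1 and 2, and 4.96 on colon replicate 3. For 6 Paneth cell genes colon replicate 3 stood at 9.31, within the 8.21 to 9.67 of small intestine, against -2.31 and 0.41 on the other colon arrays. For 9 colonocyte genes it stood at -2.88, against 3.90 and 4.59 on the others and -2.79 to -1.58 in small intestine. Single genes of these lists were split. On colon replicate 3 the enterocyte genes stood nearer to small intestine for 10 of 10, the Paneth cell genes for 5 of 6 and the colonocyte genes for 7 of 9. Of the colonocyte list, 5 of 9 genes were well above background there. Car4 (6.77) and Aqp4 (2.42) stood nearer to the other colon arrays, and Tmigd1 (6.14), Car1 and Slc26a3 nearer to small intestine. Aqp8, Scnn1b, Hoxd13 and Hoxb13 were not above background there. Defa21 of the Paneth list was not above background, as on the other colon arrays. Colon replicate 3 thus went against its label in the medians of these lists. Colon results include it, and many of them are also given without it. Genes of goblet cells, which secrete mucins, were high in every tissue (medians 6.01 to 8.45) and low in CT26 (-6.33 to -5.95). Of 8 general epithelial genes, 3 to 4 were well above background on the CT26 arrays, where the median was -5.50 to -4.87, against 8 of 8 on every tissue array.

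**Figure D1:**
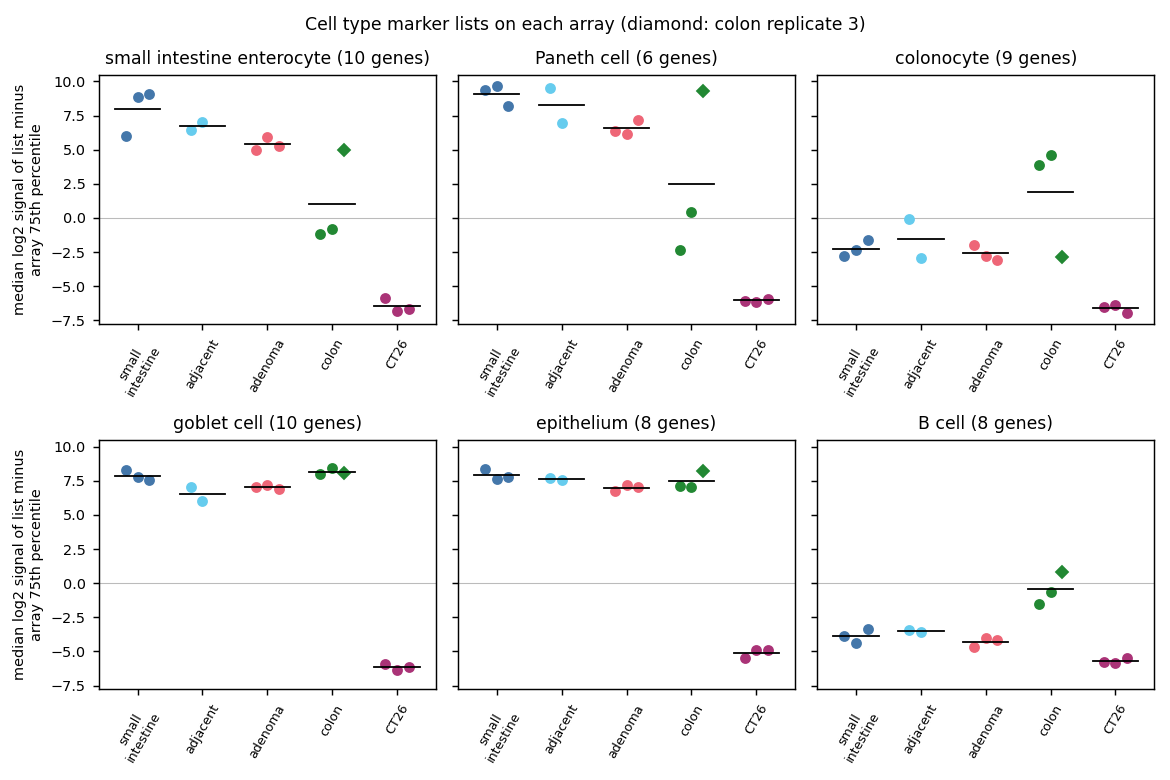
Median log2 signal, relative to the 75th percentile of the array, of the genes of 6 cell type marker lists, with 1 point per array, a diamond for colon replicate 3 and a black line for the group mean. Colon replicate 3 sits at 4.96 for enterocyte genes and at -2.88 for colonocyte genes, near the small intestine arrays, while CT26 lies at or below -4.87 in all 6 lists.

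B3galt5 adds galactose in beta-1,3 linkage to N-acetylglucosamine and so makes type 1 chains, the backbone of Lewis a structures. Its probe (mm9, chromosome 16, 96541170 to 96541229) read 5.23, 5.72 and 4.84 on colon replicates 1 to 3 and -2.89, -2.16 and -2.58 on the small intestine arrays. Colon replicate 3 stood with the other colon arrays for this gene. The difference between the means was 7.81, and 8.02 without colon replicate 3. It was 7.18 in the authors' table and 6.89 with normexp background correction. St6galnac6 adds sialic acid in alpha-2,6 linkage to inner sugars of a chain and is needed for disialyl Lewis a and for some gangliosides. Its probe (mm9, chromosome 2, 32476265 to 32476324) read 7.09, 7.74 and 6.45 on the colon arrays and 1.54, 1.62 and 2.43 in small intestine, a difference of 5.23, and of 5.55 without colon replicate 3. These are the values that the choice of the set rests on. No other group reached the colon range of either gene.

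The sequences upstream of the starts of these 2 genes are shown because both were high in colon, and each is the 250 bases before a RefSeq transcription start in GRCm38.p6, on the plus strand, written 5′ to 3′. RefSeq gives 1 window for St6galnac6 (chr2:32599459-32599708) and 3 for B3galt5 (chr16:96235551-96235800, chr16:96273263-96273512 and chr16:96280782-96281031). Capitals mark matches, on either strand, to letters bound by factors of intestinal epithelium or by the basal machinery: TTTATG for CDX, CAAAGTCC for HNF4, GTTAAT for HNF1 and the TATA box TATAAA. None of these motifs contains another.
St6galnac6: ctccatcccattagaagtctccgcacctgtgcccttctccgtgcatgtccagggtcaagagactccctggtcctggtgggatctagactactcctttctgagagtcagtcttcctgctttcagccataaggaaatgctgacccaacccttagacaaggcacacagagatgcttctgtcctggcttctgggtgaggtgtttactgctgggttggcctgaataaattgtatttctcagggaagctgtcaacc
B3galt5, start 1: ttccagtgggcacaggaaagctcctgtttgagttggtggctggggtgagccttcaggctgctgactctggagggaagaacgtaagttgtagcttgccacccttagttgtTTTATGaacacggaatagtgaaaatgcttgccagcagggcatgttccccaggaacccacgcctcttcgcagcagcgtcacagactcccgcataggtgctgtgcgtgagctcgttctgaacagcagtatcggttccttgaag
B3galt5, start 2: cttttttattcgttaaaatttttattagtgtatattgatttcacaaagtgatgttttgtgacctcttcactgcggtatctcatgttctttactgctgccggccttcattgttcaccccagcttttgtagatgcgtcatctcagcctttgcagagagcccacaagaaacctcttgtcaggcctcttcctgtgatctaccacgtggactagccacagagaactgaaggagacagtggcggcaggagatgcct
B3galt5, start 3: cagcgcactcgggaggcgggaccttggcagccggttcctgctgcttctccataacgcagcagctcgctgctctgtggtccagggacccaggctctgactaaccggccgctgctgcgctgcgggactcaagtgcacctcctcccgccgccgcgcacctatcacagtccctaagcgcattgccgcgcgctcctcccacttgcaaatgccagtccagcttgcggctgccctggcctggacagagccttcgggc

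The only match was 1 CDX motif at the most upstream B3galt5 start. Of 32851 such RefSeq windows, 10.8% hold the CDX letters, 1.2% the HNF4 letters, 6.43% the HNF1 letters and 12.4% the TATA letters, so the match is a common one. Over all the members, 8 of 10 had windows, 12 in number, and the CDX letters occurred in 1 further window, at a start of St6gal1. A match or its lack says nothing here of factor binding.

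The 8 members that were not the reason for the choice were described in colon in the same way. Fut2 makes the H antigen by adding alpha-1,2 fucose, the step that defines secretors in humans. It read 0.89, 1.49 and 1.69 on the colon arrays and -2.79, -3.81 and -1.74 in small intestine, where it was well above background on 2 of 3 arrays, a difference of 4.13 (3.97 without colon replicate 3). B3gnt7, which extends chains of N-acetyllactosamine, read 1.90, 1.04 and 0.81 in colon and -2.55, -2.91 and -1.79 in small intestine, a difference of 3.67 (3.89 without replicate 3). In the authors' table and with normexp these differences were 3.28 and 3.1 for Fut2 and 3.003 and 2.84 for B3gnt7. For both genes every colon array, replicate 3 included, lay above every small intestine array.

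Gcnt3 adds the branches of core 2 and core 4 O-glycans on mucins. It read 4.32, 4.83 and 4.001 in colon and 3.01, 2.05 and 1.77 in small intestine, which did not overlap and differed by 2.11 (2.30 without colon replicate 3). C1galt1 is the enzyme that makes core 1, the most common O-glycan core. It overlapped between colon (2.08, 2.10 and 1.27) and small intestine (1.48, 1.29 and 1.82), through colon replicate 3 alone. B4galnt2, which caps sialylated chains with N-acetylgalactosamine to give the Sda antigen, was at 6.97, 7.34 and 7.49 in colon and 7.74, 7.67 and 7.86 in small intestine, a difference of -0.49, which was -0.24 in the authors' table and -0.27 with quantile normalization.

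The sialyltransferases that cap galactose split in colon, and on them replicate 3 parted from the other colon arrays. St3gal3, an alpha-2,3 sialyltransferase known to act on type 1 chains, read 4.28 and 4.86 on colon replicates 1 and 2 and 1.68 on replicate 3, against 1.03, 0.96 and 0.37 in small intestine. St6gal1, which adds alpha-2,6 sialic acid to N-glycans, read 2.11 and 2.18 on colon replicates 1 and 2 and -1.25 on replicate 3, against -1.54, -2.46 and -3.73 in small intestine. Both stood nearer to small intestine than to the other colon arrays on replicate 3, and their differences between colon and small intestine were 2.82 and 3.60, or 3.79 and 4.73 without it.

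St3gal4, an alpha-2,3 sialyltransferase of N-acetyllactosamine chains, ran the other way. It read 5.89, 5.90 and 6.28 in small intestine and 1.73, 2.85 and -3.16 in colon, with replicate 3 below the other colon arrays and not between them and small intestine. The difference was -5.55, and -3.74 without replicate 3. On replicate 3, Fut2, B3gnt7 and Gcnt3 stood nearer to colon replicates 1 and 2 than to the small intestine mean, as did St3gal4, which lay beyond them. St3gal3, St6gal1, B4galnt2 and C1galt1 stood nearer to small intestine. Of these, B4galnt2 and C1galt1 differed little between colon replicates 1 and 2 and small intestine (-0.60 and 0.56). B3galt5 and St6galnac6 stood nearer to colon, but they were picked on colon arrays that include this one. The share of all genes on either side is not given, so this is a description of that array, whose marker values are given above. The part of its marker content in these levels was not tested.

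**Figure D2:**
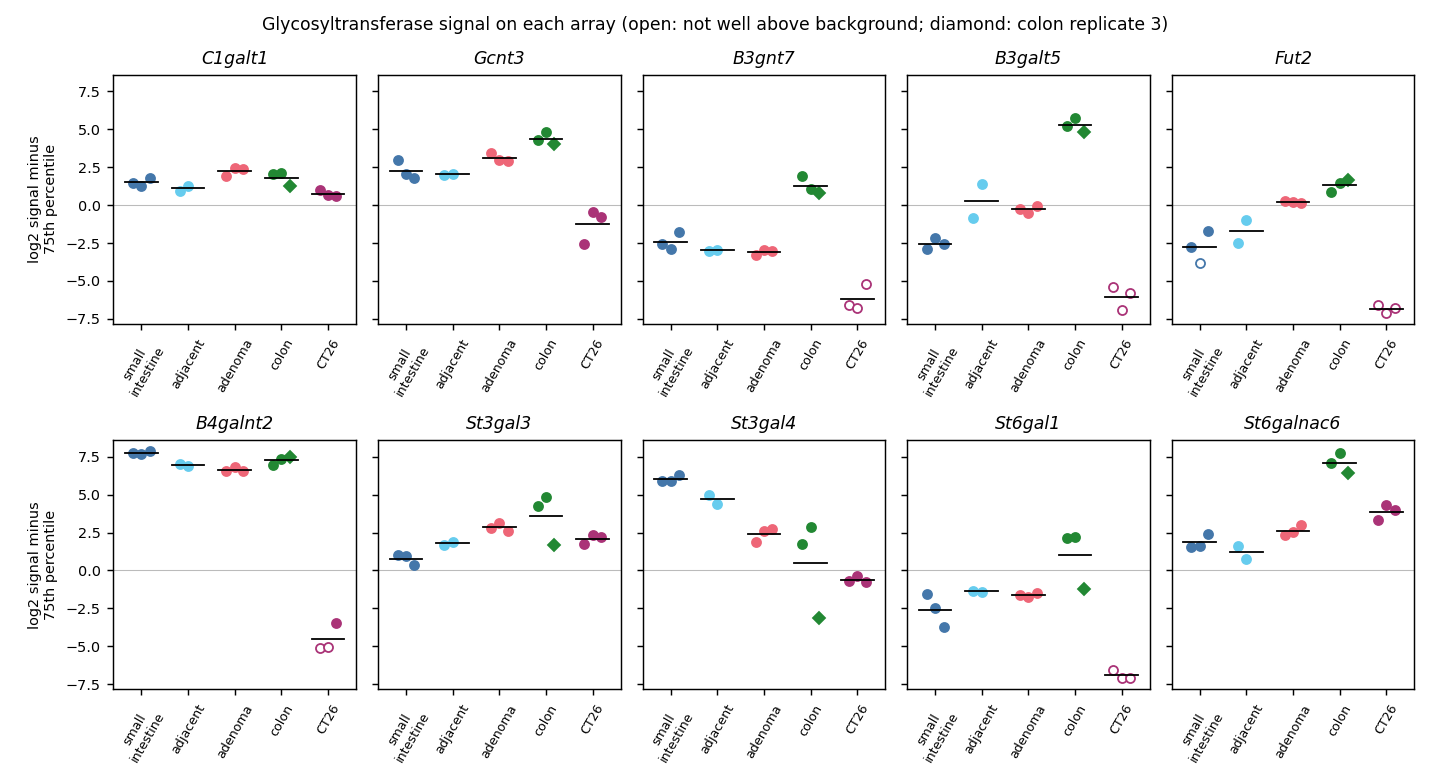
Log2 signal of the 10 glycosyltransferases relative to the 75th percentile of each array, with 1 point per array by group, open points where the probe was not well above background, a diamond for colon replicate 3 and a black line for the group mean. B3galt5 and St6galnac6 are highest in colon, St3gal4 steps down from 6.03 in small intestine through 4.69 in adjacent tissue to 2.42 in adenomas, and B3galt5, Fut2, St6gal1 and B3gnt7 are open on every CT26 array.

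Adenomas, all from 1 Apc Min/+ mouse, were compared with small intestine of other, healthy mice, so lesion, animal and genotype cannot be told apart. In adenomas the signal of Fut2 and St3gal3 was higher and that of St3gal4 lower. This comparison shares its small intestine arrays with the one on which B3galt5 and St6galnac6 were picked, so these 2 are given as a description. Of the 8 other members, 2 were called higher and 1 lower, where 11.3% of 22095 genes tested were called higher and 11% lower. The median log2 fold change of the 8 was 0.77, and that of all genes tested was -0.15. With all 10 members counted, B3galt5 was also past the limits, for 3 higher and 1 lower.

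The largest of these changes was that of St3gal4 (mm9, chromosome 9, 34854434 to 34854493). It read 1.89, 2.63 and 2.74 on the adenoma arrays against 5.89, 5.90 and 6.28 in small intestine, without overlap. The log2 fold change was -3.61 (SE 0.26, limma adjusted p = 0.000147), a 12.2-fold lower signal. Fut2 (mm9, chromosome 7, 52904672 to 52904731) read 0.31, 0.20 and 0.17 in adenomas and lay above all small intestine arrays on 3 of 3 arrays. Its log2 fold change was 3.001 (SE 0.47, limma adjusted p = 0.00244), 8.004-fold, against a group in which 2 of 3 arrays were well above background. Fut2 thus passed the background filter through the adenoma arrays alone. The change was 2.18 in the authors' table and 2.10 with normexp. The call on Fut2 rested on all adenoma arrays, since its limma adjusted p was 0.0119, 0.0131 and 0.0103 without adenoma replicates 1, 2 and 3.

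B3galt5 read -0.27, -0.49 and -0.04 in adenomas, above every small intestine array and below every colon array. Its difference from small intestine was 2.28 on the log2 scale (SE 0.23), 4.85-fold, and 1.64 in the authors' table and 1.55 with normexp. St3gal3 (mm9, chromosome 4, 117604858 to 117604917) read 2.80, 3.14 and 2.57 in adenomas, without overlap with small intestine. It was 4.15-fold higher, a log2 fold change of 2.05 (SE 0.25, limma adjusted p = 0.000811). In adenomas the 2 alpha-2,3 sialyltransferases of the set moved in opposite directions. When all 5 groups shared 1 fit, St3gal3 and St3gal4 lost their calls (limma adjusted p = 0.0211 and 0.0225), and with colon replicate 3 left out of that fit both were called again. Over all settings the adjusted p ranged from 0.000114 to 0.0211 for St3gal3, from 1.27e-05 to 0.0225 for St3gal4 and from 0.000417 to 0.0131 for Fut2. B3galt5, Fut2, St3gal3 and St3gal4 did not overlap between these groups, so their direction within each slide of the arrays was fixed. The smallest difference within a slide was 1.67 in size.

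Of the other members, B4galnt2 (mm9, chromosome 11, 95724942 to 95725001) came closest. It read 6.54, 6.82 and 6.54 in adenomas, below all small intestine arrays, with a log2 fold change of -1.13 (SE 0.16, limma adjusted p = 0.00172) that did not reach the fold limit. C1galt1 (mm9, chromosome 6, 7821076 to 7821135) read 1.93, 2.45 and 2.35, a log2 fold change of 0.72 (limma adjusted p = 0.03). Gcnt3 read 3.42, 2.98 and 2.93 and St6galnac6 read 2.33, 2.53 and 3.01, and both overlapped with small intestine. St6gal1 (-1.62, -1.78 and -1.45) and B3gnt7 (-3.26, -2.97 and -3.04) had log2 fold changes of 0.96 and -0.67 with limma adjusted p of 0.146 and 0.094.

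Cell type markers differed between the same arrays. The medians of enterocyte genes (10 of 10 above background) were 4.98 to 5.91 in adenomas and 6.03 to 9.05 in small intestine, and those of Paneth cell genes (6 of 6) 6.12 to 7.18 and 8.21 to 9.67. Genes of gastric and pyloric glands had medians of 2.82 to 3.15 in adenomas, with 9 of 9 above background, and of -6.70 to -3.05 in small intestine, with 2 to 7. Proliferation genes stood at 3.61 to 3.66 against 1.25 to 2.55, fibroblast genes at 3.49 to 3.62 against 1.30 to 2.46, and smooth muscle genes at 2.36 to 2.44 against 2.92 to 4.34. The part of these cell types in the changes of the members was not tested.

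**Figure D3:**
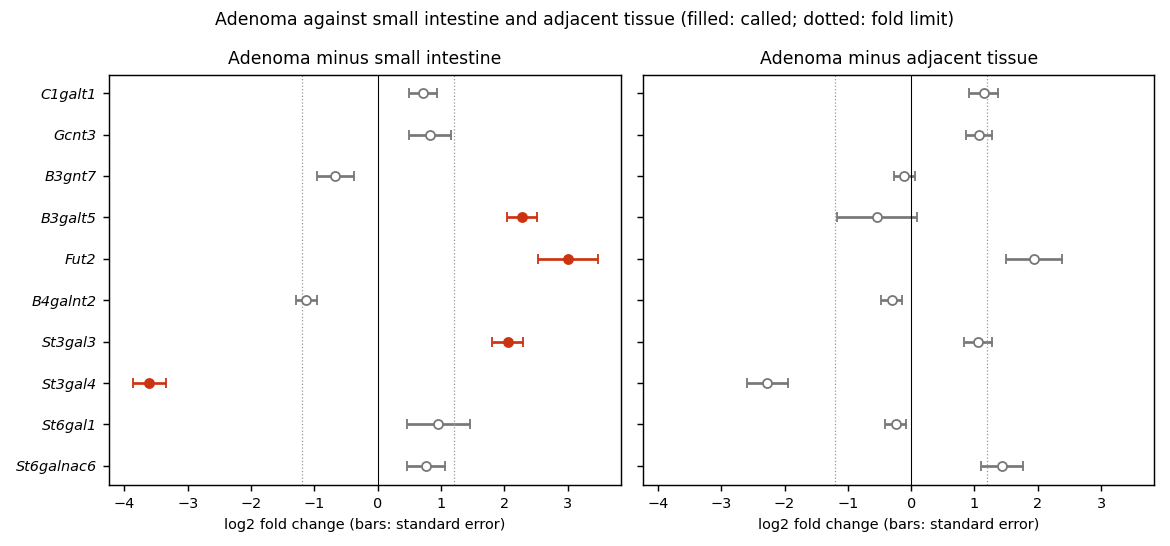
Log2 fold change (horizontal axis, bars of 1 standard error) of the 10 members in adenomas over small intestine (left) and over adjacent tissue (right), filled where past both limits, with dotted lines at the fold limit of 1.2. B3galt5, filled on the left, is a description there and not a test. St3gal4 is lower against both references, by -3.61 and -2.27, and B3galt5 is higher against small intestine (2.28) but not against adjacent tissue (-0.54).

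Tissue adjacent to adenomas was compared with both to place it between them. Against adjacent tissue, 0 of 10 members were called in adenomas by limma, with 6 at an unadjusted p under 0.05 (38% of all probes were), where 2.4% of 22200 genes were called higher and 1.57% lower. St3gal4 was nearest to a call. It read 4.99 and 4.39 in adjacent tissue, above every adenoma array and below every small intestine array, and the log2 fold change of adenomas over adjacent tissue was -2.27 (SE 0.33, limma adjusted p = 0.0113). This value crossed the threshold under 5 other settings with the same limits and ranged from 0.00345 to 0.338 over all of them.

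St6galnac6 (1.63 and 0.75 in adjacent tissue), Fut2 (-2.49 and -0.95), C1galt1 (0.92 and 1.28), Gcnt3 (1.98 and 2.08) and St3gal3 (1.66 and 1.91) were lower on both adjacent arrays than on every adenoma array. Their log2 fold changes in adenomas over adjacent tissue were 1.44, 1.94, 1.15, 1.08 and 1.06, with limma adjusted p from 0.0217 to 0.0357. Without adjacent replicate 2, the difference of Fut2 was 2.71, against a single adjacent array. B3galt5 differed most between the adjacent arrays, at -0.85 and 1.41, with the adenomas between them, so the sign of its difference from adenomas depended on 1 array and was 0.58 without adjacent replicate 2. For B4galnt2 (7.02 and 6.86), St6gal1 (-1.34 and -1.41) and B3gnt7 (-3.02 and -2.94) the log2 fold changes in adenomas over adjacent tissue were -0.31, -0.24 and -0.11. Of these 3, B4galnt2 and St6gal1 were lower on every adenoma array than on both adjacent arrays. In all, 8 of 10 members did not overlap between these groups, and the share of all genes without overlap is not given.

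Between adjacent tissue and small intestine 0 of the 8 members not picked on colon were called by limma, and neither B3galt5 nor St6galnac6 passed the limits. Over all genes, 0.00924% of 21642 were called higher and 0% lower. Of the 8, B4galnt2, St3gal3 and St3gal4 had an unadjusted limma p under 0.05 (30.6% of all probes had). The largest member differences were that of B3galt5, a description for the reason above, at 2.82 (SE 0.66), and that of St3gal4, with -1.34 (SE 0.28, limma adjusted p = 0.0604). Both lay without overlap to small intestine, on 2 adjacent arrays, and so did B4galnt2, St3gal3, St6gal1, B3gnt7 and C1galt1, for 7 of 10 members. The share of all genes without overlap is not given.

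Adenomas were next set beside colon, where B3galt5 and St6galnac6 are given as a description because they were picked on their colon level. They were lower in adenomas by 5.53 and 4.47 on the log2 scale in the difference of means, and no adenoma array reached a colon array. Of the 8 other members, B3gnt7 was called lower and 0 were called higher, where 1.56% of 21862 genes were called lower and 2.09% higher. B3gnt7 (mm9, chromosome 1, 88202952 to 88203011) had a log2 fold change of -4.34 (SE 0.32, limma adjusted p = 0.00195), 20.2-fold, and no adenoma array reached a colon array. That call did not hold without any 1 of the adenoma arrays, where the adjusted p was 0.0187, 0.0242 and 0.0158, nor with slide (0.0115) or replicate number (0.0148) as a block. Its range over all settings was 5.29e-05 to 0.0242.

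Without colon replicate 3, 3 of the 8 members were called lower and 0 higher in adenomas, where 6.54% of 23065 genes were called lower and 5.06% higher. St6gal1 then had a log2 fold change of -3.77 (SE 0.17, limma adjusted p = 0.000245), St3gal3 of -1.73 (SE 0.26, limma adjusted p = 0.00731) and B3gnt7 of -4.56 (limma adjusted p = 0.000585). With all colon arrays the limma adjusted p was 0.123 for St6gal1 and 0.591 for St3gal3. Fut2 lay below every colon array in adenomas, by a log2 fold change of -1.13 (limma adjusted p = 0.0386), and Gcnt3 by -1.28 (limma adjusted p = 0.037). St3gal4 and C1galt1 overlapped between these groups.

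CT26 cells, a BALB/c colon carcinoma line, were compared with colon labelled C57BL/6J and had lower signal for most of the set. Strain and line cannot be told apart here. Fut2, St6gal1, B3gnt7 and B3galt5 were not well above background on any CT26 array, and B4galnt2 was so on 1 of 3. Of the 8 members that could be tested, 5 were called lower and 0 higher, where 16.1% of 21696 genes were called lower and 21.5% higher. The median log2 fold change of the 8 was -6.55, and that of all genes, likewise without bounds, was 0.34. With the 3 members that were below background on all CT26 arrays set at their bounds, the median of the 8 was -5.70. Without colon replicate 3, 8 of 8 were called lower, where 19.3% of 23186 genes were called lower and 20.5% higher.

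Fut2 read -6.61, -7.10 and -6.81 in CT26 and was at least 68.2-fold lower than in colon (limma adjusted p = 1.81e-06). B3gnt7 read -6.61, -6.78 and -5.18 and was at least 63.4-fold lower (limma adjusted p = 2.27e-05). St6gal1 (mm9, chromosome 16, 23360037 to 23360096) read -6.54, -7.08 and -7.06 and was at least 53.9-fold lower (limma adjusted p = 0.000247). None of the 3 overlapped with colon, replicate 3 included. These bounds hold for the background subtraction of the scanner. The log2 differences were smaller in the authors' table (Fut2 -4.38, B3gnt7 -4.0, St6gal1 -4.19) and with normexp background correction (-4.61, -4.23 and -4.51), and the calls were kept. The other St6gal1 probe (23358405 to 23358465) was well above background on 2 arrays of the series, colon replicates 1 and 2, at -3.42 and -3.81.

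B4galnt2 read -5.12, -5.05 and -3.44 in CT26, where only the last was above background, so its size is uncertain. The log2 fold change was -11.80 (SE 0.49, limma adjusted p = 2.08e-06) and ranged from -12.35 to -9.69 over all settings. Gcnt3 (mm9, chromosome 9, 69879436 to 69879495) stayed above background in CT26 at -2.57, -0.46 and -0.78 and was 50.2-fold lower, a log2 fold change of -5.65 (SE 0.57, limma adjusted p = 0.000158). No called member overlapped with colon, so the direction within each slide was fixed, and the smallest difference within a slide was 4.62 in size. As a description, B3galt5 read -5.42, -6.89 and -5.78 in CT26 and was at least 1023-fold lower, with a difference of means of -8.14 in the authors' table and -8.27 with normexp on the log2 scale, both smaller than that bound.

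Of the 4 sialyltransferases, St6gal1 was below background in CT26 and the other 3 stayed above it on every array, as did C1galt1 and Gcnt3. St6galnac6 read 3.32, 4.29 and 3.99, below colon by 3.23 in the difference of means and above every small intestine, adjacent and adenoma array, which is given as a description. St3gal3 read 1.75, 2.33 and 2.20 and St3gal4 read -0.72, -0.34 and -0.74, and both overlapped with colon through replicate 3. C1galt1 read 1.03, 0.64 and 0.59, below every colon array, with a log2 fold change of -1.06 (SE 0.34, limma adjusted p = 0.0306). The log2 fold changes of St3gal3 and St3gal4 were -1.52 and -1.07 (limma adjusted p = 0.135 and 0.544), and without colon replicate 3 they were -2.48 and -2.89 (0.000759 and 0.000814), with C1galt1 at -1.34 (0.00641). Without colon replicate 2 the difference of St3gal4 turned to 0.11. The epithelial and goblet cell markers that stood low in CT26 are given above, and their part in these differences was not tested.

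The order of the group means differed between members. Colon stood first for B3galt5, St6galnac6, Fut2, St3gal3, St6gal1, B3gnt7 and Gcnt3, small intestine for B4galnt2 and St3gal4, and adenoma for C1galt1. CT26 stood last for every member but St6galnac6, for which adjacent tissue was last at 1.19, and St3gal3, for which small intestine was last at 0.79. Neighbours in the order that overlapped between arrays were adjacent tissue and adenomas for B3galt5 and B3gnt7, adjacent tissue and small intestine for Fut2, colon and adenomas for St3gal3, St3gal4 and C1galt1, and adenomas and small intestine for St6gal1. Colon also overlapped with CT26 for St3gal4, with small intestine for C1galt1 and with adjacent tissue for B4galnt2, and CT26 overlapped with adjacent tissue for St3gal3 and C1galt1. The colon overlaps of St3gal3 with adenomas, of St3gal4 with CT26 and of C1galt1 with small intestine came through colon replicate 3 alone. For St6galnac6 and Gcnt3, adenomas, small intestine and adjacent tissue overlapped in turn. Small intestine, adjacent tissue and adenomas stood in steps without overlap, downwards for St3gal4 and B4galnt2 and upwards for St3gal3. The share of all genes that form such steps is not given, so this is a description.

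Genes with the pattern most like 3 of the members were ranked by Pearson's r over 14 arrays among 23650 genes, as a description, since the arrays form 5 groups and share slides. Closest to B3galt5 were Cmah (0.96), which makes the N-glycolyl form of sialic acid, 5830428M24Rik (0.96) and C030005K06Rik (0.95). For St6galnac6 they were Eif4ebp3 (0.87), a translation inhibitor, an unnamed intergenic RNA probe on chromosome 14 (0.87) and the amino acid transporter Slc6a14 (0.87). For Fut2 they were C2cd4b (0.98), C77137 (0.98) and Mal (0.97), a protein of apical membrane traffic.

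The other genes of the pathway were read from lists of transferases by sugar, sugar donor supply and mucins, 105 genes on the array besides the members. In adenomas over small intestine, 13 of 90 tested (14.4%) were called higher and 7 (7.78%) lower, near the 11.3% and 11% of all genes, with a median log2 fold change of -0.02. By list, sialyltransferases had 3 of 12 higher and 1 lower, fucosyltransferases 1 of 9 higher, galactosyltransferases 2 of 13 higher and 2 lower, and polypeptide N-acetylgalactosaminyltransferases, which start O-glycans, 3 of 13 higher. N-acetylgalactosaminyltransferases of chain ends had 1 of 5 higher and 2 lower, N-acetylglucosaminyltransferases 1 of 17 higher and 1 lower, mucins 2 of 4 higher and 1 lower, and the 17 genes of sugar donor supply had 0 called.

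The alpha-2,8 sialyltransferases St8sia5 and St8sia6, which add sialic acid to sialic acid, were among the genes called higher. St8sia6 read 0.92, 1.02 and 1.33 in adenomas, was not above background on any small intestine array and was at least 40.9-fold higher (limma adjusted p = 9.37e-05). St8sia5 read 1.40, 0.39 and 0.22 and was at least 30.2-fold higher (limma adjusted p = 0.000627), while the adjacent arrays read -1.25 and 0.999. Ggta1, which makes the alpha-galactose epitope, was at least 3.74-fold higher, Fut9, an alpha-1,3 fucosyltransferase, at least 2.46-fold, and the membrane mucin Muc4 6.01-fold. St8sia5, St8sia6, Ggta1 and Fut9 were not above background on any small intestine array. They were tested through the adenoma arrays alone, so their higher direction was set by the filter.

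The largest falls among the other genes were those of B4galt5, known as a lactosylceramide synthase, of B4galnt3 and of Mgat3, which adds bisecting N-acetylglucosamine. B4galt5 read 1.68, 1.78 and 1.96 in adenomas against 4.48, 5.11 and 5.49 in small intestine, a log2 fold change of -3.22 (limma adjusted p = 0.000226). B4galnt3 and Mgat3 had -2.29 (adenomas above background on 1 of 3 arrays) and -2.19, the membrane mucin Muc13 -2.16 and St3gal1, an alpha-2,3 sialyltransferase of core 1, -1.98. Over adjacent tissue 3 of 90 genes were higher in adenomas and 0 lower, where 2.4% of all genes were called higher and 1.57% lower. The 3 were St8sia6 (a log2 fold change of 4.83, adjacent tissue above background on 1 of 2 arrays), Galnt3 (1.95) and Muc20 (1.88). Between adjacent tissue and small intestine 0 of 87 were called by limma, with 36 (41.4%) at an unadjusted p under 0.05, against 30.6% of all probes.

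Between colon and small intestine 0 of 83 of these genes were called by limma, with 28 (33.7%) at an unadjusted p under 0.05, against 23.6% of all probes, where 0.00484% of 20646 genes were called higher and 0.00484% lower. Without colon replicate 3, 13 of 92 were higher in colon and 3 lower, where 3.28% of 22602 genes were called higher and 3.9% lower. Abo, the blood group A and B transferase, was at least 15.5-fold higher in colon and Fut9 at least 12.8-fold. Both were not above background in small intestine, so their direction was set by the filter. B3gnt5, which starts lacto-series glycolipids, was higher by 5.41 (2 of 3 small intestine arrays above background), Gcnt1, a core 2 branching enzyme, by 3.13, and B3galt2 at least 2.59-fold. Fut7, B4galt6 and Galnt1 were lower by log2 fold changes of -2.17, -2.03 and -1.79.

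In adenomas over colon 2 of 90 were called higher and 4 lower, and 6 of 94 higher and 24 lower when colon replicate 3 was left out. The shares of all genes were 2.09% higher and 1.56% lower, and 5.06% and 6.54% without colon replicate 3. St8sia6 (5.58) and Ggta1 (2.23) were higher, each with 1 of 3 colon arrays above background, and Mgat4c (-3.43), Fut4 (-2.56), Mgat3 (-1.60) and the UDP-galactose transporter Slc35a2 (-1.51) lower. Without colon replicate 3 the named rises also held B4galnt4 (3.06), B4galt6 (2.34) and Galnt2 (1.70), and the largest falls were those of B3gnt6, the core 3 synthase (-5.83), Abo (-3.64) and B3gnt5 (-3.63), followed by B3galt2 and Gcnt1.

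In CT26 over colon 8 of 84 were higher and 37 lower, with a median log2 fold change of -1.45, and 6 of 93 higher and 50 lower when colon replicate 3 was left out. Over all genes tested, 21.5% were called higher and 16.1% lower, and 20.5% and 19.3% without colon replicate 3. The polypeptide N-acetylgalactosaminyltransferases had 8 of 13 lower and 0 higher, N-acetylglucosaminyltransferases 7 of 16 lower and 0 higher, sugar donor supply 9 of 17 lower and 1 higher and mucins 3 of 4 lower. Sialyltransferases had 3 of 9 lower and 2 higher, galactosyltransferases 3 of 12 lower and 3 higher, fucosyltransferases 2 of 8 lower and 2 higher, and N-acetylgalactosaminyltransferases of chain ends 2 of 5 lower. Galnt6 was at least 1888-fold lower in CT26 and Mgat4c, an N-glycan branching enzyme, at least 328.8-fold.

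The mucins Muc2, Muc4 and Muc13 were lower in CT26. Muc2, the main secreted gut mucin, read 7.43, 8.59 and 6.87 in colon, was not above background on any CT26 array and was at least 5270-fold lower (limma adjusted p = 8.48e-07). Muc4 was at least 398.1-fold lower, and Muc13 stayed above background with a log2 fold change of -13.00. The bounds of Muc2, Muc4, Galnt6 and Mgat4c hold for the scanner's background subtraction, and values under other corrections are not given for them. Higher in CT26 were St3gal5, the synthase of ganglioside GM3 (4.22), Fut10 (3.41), B4galt2 (2.94), Ggta1 (2.84, colon above background on 1 of 3 arrays) and St3gal2 (2.82). St3gal5 read 2.05, 4.27 and 3.77 in CT26 and -0.22, -0.57 and -1.77 in colon, without overlap (SE 0.65, limma adjusted p = 0.00126).

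**Figure D4:**
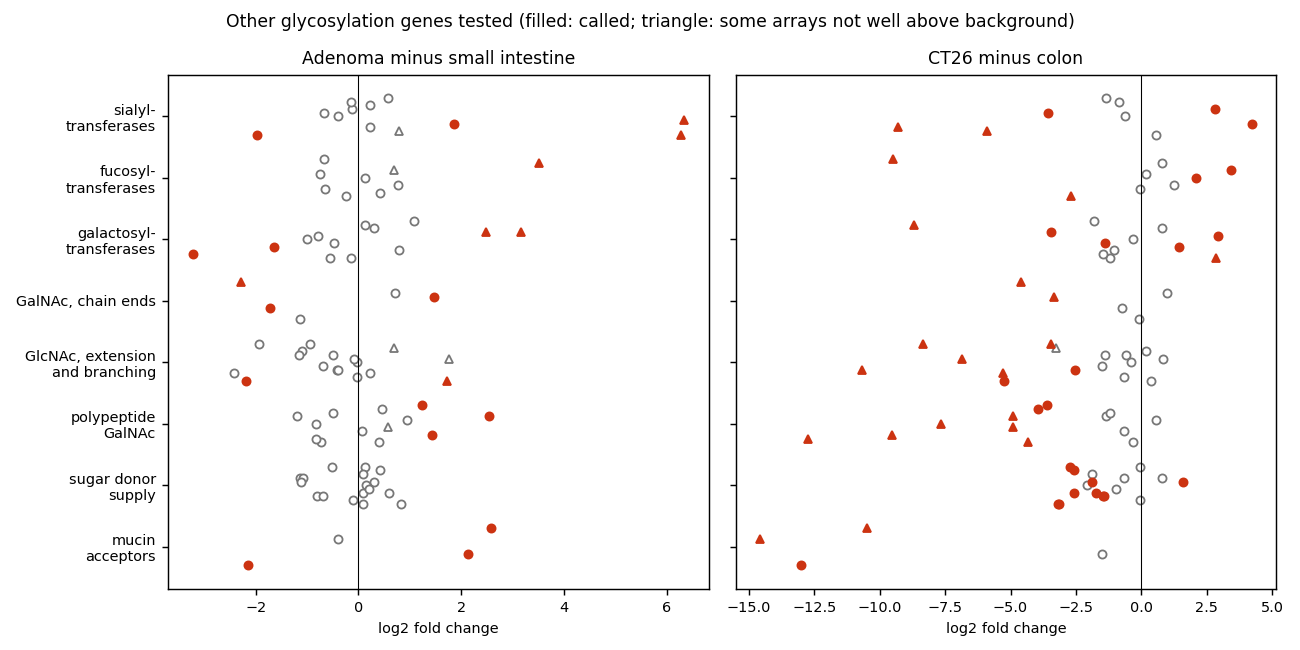
Log2 fold change of the other glycosylation genes tested, by list, in adenomas over small intestine (left, 90 genes) and CT26 over colon (right, 84 genes), filled where called and drawn as triangles where some arrays of either group were not well above background. Calls go both ways in adenomas (13 higher, 7 lower), and most calls in CT26 are to the left (37 lower, 8 higher).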

How the data were processed

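Each sample was hybridized to 1 SurePrint G3 Mouse 8x60K array. The authors deposited scanner files written by Feature Extraction 10.7.3.1, which hold a background-subtracted intensity per spot, and a table of log2 values normalized between arrays by a method that is not given in the sources used here. The 28 columns in which it holds flags and detection calls were not used, and neither were its columns of the authors' own fold changes and p-values.

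Control spots and outlier spots (103 to 206 per array) were left out, spots of a probe were averaged as log2, and each array was then centred on its 75th percentile. For a gene with several probes, the one with the highest mean was used. Positions are those of the probes in mm9, and gene features at them were not analysed here. Groups were taken from the labels, and each of 6 pairs of groups was fitted on its own arrays with limma 3.58.1 in R 4.3.3 over the probes that passed the background test on all arrays of 1 or both groups. The fit was tested on simulated data. The members and gene lists were chosen with earlier results of these data known. Genes named were the 10 members, up to 5 called genes of the glycosylation lists per direction and comparison by size of change, and the 3 genes most like B3galt5, St6galnac6 and Fut2. Promoter windows were RefSeq sequences of GRCm38.p6, and all 10 symbols matched that table. Results were recomputed from the authors' table, with normexp (offset 50) or quantile scaling, with every probe or only those above background throughout, with all 5 groups in 1 fit, with a block for slide or for replicate number, with an intensity trend, with the mean over a gene's probes, at an adjusted p of 0.05 without a fold limit, and without each array in turn.

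Same-numbered arrays had correlations of deviations from -0.32 to 0.29 and no label ties the numbers to a shared animal or day, so the fits had no replicate block.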

Additional observations from a re-analysis of the deposited data

How the results depend on the processing

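The count of members called in adenomas over small intestine, B3galt5 included, was 4 and stayed within 3 to 6 under every setting but 1, the fit of all 5 groups, where it was 2. With any 1 array left out it was 3 to 4. B3galt5, only a description in this comparison, was past the limits under every setting and so makes up 1 of each of these counts. In adenomas over adjacent tissue, where 0 were called, 1 was called, St3gal4, with the authors' table, normexp, probes above background on every array, an intensity trend or all 5 groups in 1 fit without colon replicate 3, and 6 at an adjusted p of 0.05 with no fold limit. With an array left out it was 0 to 1, and the lone adjacent array that can remain is assumed to vary like the other group. In adjacent tissue over small intestine 0 were called under every setting. In adenomas over colon, where 1 was called, 0 were called with slide as a block, 3 with all 5 groups in 1 fit without colon replicate 3 and 3 at the looser threshold, and 0 to 3 with an array left out. In CT26 over colon, where 5 were called, 1 was called when only probes above background on every array were kept. That setting leaves out the members that were tested through the colon arrays alone. The count was 8 in the fit of all 5 groups without colon replicate 3, and 5 to 8 with an array left out. For the other glycosylation genes in colon over small intestine, 5 were called in the fit of all 5 groups, 27 in that fit without colon replicate 3, and 0 to 16 with an array left out. Shares of all genes called are given only for the main fits and for those fits without colon replicate 3. Counts under the other settings thus cannot be set against all genes.

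With the replicate number as a block, 0 members were called in adenomas over colon, against 1 without it. The block left 4 in adenomas over small intestine, 0 over adjacent tissue and 5 in CT26 over colon. Replicate numbers are only shared, not paired, in these samples.

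The sign turned for 4 member differences that were not called. B3gnt7 in adenomas over adjacent tissue was 0.074 with quantile normalization. With an array left out, B3galt5 in adenomas over adjacent tissue ranged from -1.67 to 0.58 (positive without adjacent replicate 2), Gcnt3 in adjacent tissue over small intestine from -0.50 to 0.12 (positive without small intestine replicate 1) and St3gal4 in CT26 over colon from -2.89 to 0.11 (positive without colon replicate 2). The cause was not tested.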
